A study of Mus musculus with 6 samples.

Results

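The genes described here are 10 regulators and surface markers of the earliest blood and endothelial cells: Tal1, Lmo2, Gata1, Gata2, Runx1, Kdr, Etv2, Fli1, Cdh5 and Pecam1. They were taken by name from the 36699 rows of the authors' gene-level table, and each was found once, in a row that names no other gene. The data come from A2Lox.cre mouse embryonic stem cells, a line that carries a transgene under the control of doxycycline (Dox), here Flag-tagged Lef1. Lef1 is a DNA-binding factor that acts with beta-catenin at the end of the Wnt pathway. The cells were kept on fibroblast feeders from FVB embryos, freed of them, and grown in suspension as embryoid bodies, the aggregates in which stem cells begin to differentiate. Both groups were harvested on day 3 and both carried the transgene: minus_Dox (3 libraries, numbered 1, 3 and 4) had no Dox, and plus_Dox (3 libraries, numbered 1, 2 and 3) had it for 24 h, from day 2. No group with Dox but without the transgene is among the samples used here, so effects of Dox itself and of Lef1 cannot be told apart. Whether the libraries stand for separate cultures is not given in the labels, so whatever spread between libraries enters the authors' p-values may be technical.

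Blood and endothelium arise from a shared mesodermal progenitor that leaves the primitive streak, the site where mesoderm forms. Etv2, an ETS-family transcription factor, starts the programme in mesoderm that carries Kdr, the receptor for the growth factor Vegf. Tal1, Lmo2 and the GATA factors then act in a DNA-bound complex that specifies blood, Runx1 drives the step from endothelium to blood stem cells, and Fli1 keeps the programme running. Cdh5 (VE-cadherin) and Pecam1 (CD31) are adhesion proteins of the endothelial junction. In the embryo and in embryoid bodies this programme follows the streak stage, and Wnt signals take part in forming the mesoderm from which it starts.

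The table gives 1 FPKM value for each gene in each group (fragments scaled by the length of the transcript and the size of the library). Levels can thus be compared between genes, but only roughly. They stand as the authors give them, with no correction for GC content made here, and a row can take in other transcripts. It holds no values of single libraries, so neither a spread over libraries nor an overlap of the groups can be shown. The error comes from the authors' own test: the log2 fold divided by the authors' statistic gives, without its sign, a standard error (SE), and from it a 95% interval, and a call is a q-value under 0.05 in the authors' deposited table. Lef1 checked the induction: the authors' deposited table puts it at 7.56 FPKM without and 51.0 FPKM with Dox (log2 fold 2.75, SE 0.19). The median log2 fold of all tested rows with at least 1 FPKM was 0.20, so a log2 fold near 0.20 is the shift of the bulk of genes. Across 11596 of these rows the log2 fold also rose with the GC content of the transcript (Spearman's coefficient 0.65) and fell with its length (-0.47), a description across genes that are not independent. Folds after removal of a smooth trend on both properties, fitted on these 11596 rows, are therefore given beside the authors' folds. For genes below 1 FPKM that trend is carried over from rows at higher levels.

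None of the 10 genes was called as changed between the groups. Of the 10, 8 were tested, and Fli1 and Cdh5 were marked as not tested. Of the 8 tested, 0 passed, where 12.2% of all 18114 tested rows did (8.98% higher and 3.22% lower in plus_Dox). Among the 8382 tested rows whose higher FPKM lay within the range of the tested members (0.0992 to 4.202 FPKM), 6.39% passed, and with 8 genes a count of 0 is close to what either share gives. At an unadjusted p under 0.05 the count in the authors' deposited table was also 0 of 8, against 23.3% of all tested rows and 14.2% of those in the same range of levels. The count was also 0 at q-value thresholds of 0.01 and 0.1 (6.67% and 16.3% of all tested rows), after subtraction of the median shift (9.56% of rows with a finite fold) and after trend removal (2.2% of rows with both properties). At 0.01 it could only be 0, given the count at 0.05. The smallest unadjusted p among the members was 0.084, for Tal1. The authors' folds were above 0 for 6 members and below 0 for 2, with a median log2 fold of 0.18, close to the 0.20 of the bulk of genes. After the median shift 4 were above 0 and 4 below. After trend removal 2 were above 0 and 6 below. The median of the tested members was then -0.40, against -0.02 for all tested rows with both properties.

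The order of levels was nearly the same without and with Dox. Etv2 was the highest, then Lmo2 and Gata1, and these 3 genes were at 1 FPKM or more in both groups. Pecam1, Runx1, Tal1, Gata2, Kdr, Cdh5 and Fli1 followed, and these 7 stayed below 1 FPKM in both groups. Only Runx1 and Pecam1 exchanged places, and no pair among the 8 tested members differed in log2 fold by more than the 95% interval of the difference (0 of 28 pairs, intervals not adjusted and built as if the folds were independent). The widest pair was Runx1 and Tal1, with a difference of 1.04 (interval -0.04 to 2.12). In minus_Dox 9 of the 10 genes lay below the median of all tested rows, 3.45 FPKM, and Etv2 lay just above it.

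**Figure D1:**
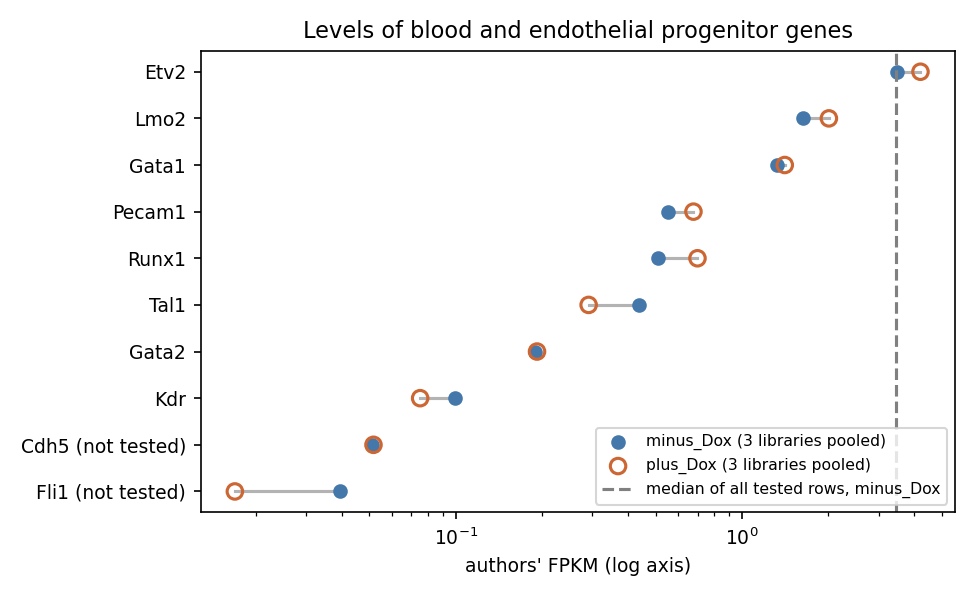
FPKM of each of the 10 genes in minus_Dox (filled points) and plus_Dox (open points) on a log axis, 1 pooled value per group, with the minus_Dox median of all tested rows (3.45 FPKM) as a dashed line. The levels span from 0.0169 FPKM for Fli1 in plus_Dox to 4.202 FPKM for Etv2 in plus_Dox, and the groups lie close together for most genes.

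Promoter windows of 300 bases (250 before to 50 after a start site) from RefSeq, build GRCm38.p6, were found for 6 of the 10 members, 9 windows in all. Letters of TCF/LEF motifs, the kind that Lef1 binds (CTTTG followed by AT, TT, AA or TA, on either strand), occurred in 0 of the 9 windows and in 16.9% of all 32851 windows. This says only that these letters are not in these windows. Letters of the members' own families did occur: GATA letters (AGATAA or TGATAA; 18.6% of all windows) before Tal1, the E-box CAGATG bound by Tal1 complexes (17.2%) before Kdr and 10 bases after the Tal1 start, and ETS letters (CCGGAAG or CAGGAAG; 20.9%) before Runx1 and Gata1. The stretches upstream of a start are shown because they hold letters of the members' own motifs. They read 5′ to 3′ on the gene's strand, with the matched letters in capitals.
Tal1, chr4:115056184-115056264, plus strand: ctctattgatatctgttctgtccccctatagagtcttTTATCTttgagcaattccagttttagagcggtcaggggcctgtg
Kdr, chr5:75978591-75978671, minus strand: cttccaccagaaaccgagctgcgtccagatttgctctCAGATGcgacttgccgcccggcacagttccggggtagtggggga
Runx1, chr16:92826156-92826236, minus strand: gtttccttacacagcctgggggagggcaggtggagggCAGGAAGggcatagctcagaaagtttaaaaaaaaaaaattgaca
Gata1, chrX:7967993-7968073, minus strand: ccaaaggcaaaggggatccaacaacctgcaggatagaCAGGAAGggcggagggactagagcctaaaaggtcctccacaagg
The matches begin 205 bases before the Tal1 start, 179 before Kdr, 125 before Runx1 and 126 before Gata1. None of the 4 stretches overlaps an exon in GENCODE vM21. The Gata1 stretch lies in an intron of another Gata1 transcript, and the Kdr stretch lies inside the RefSeq span of Kdr. A match is a description of letters, and these data hold no binding measurement.

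Etv2, the factor that opens the programme, was the member with the highest level. The authors' value was 3.47 FPKM in minus_Dox and 4.202 FPKM in plus_Dox, higher than 50.1% and 52.0% of all tested rows. The fold of 1.21 had a 95% interval of 0.824 to 1.78 (log2 fold 0.28 with SE 0.28 and, per the authors' deposited table, q = 0.67). Its transcript is short (1048 nt) and rich in GC (59.2%), and rows of that composition had an expected log2 fold of 0.73. After trend removal Etv2 therefore stood at -0.45 (q = 0.81). The sign of its small difference thus depended on the correction, and neither value passed. Its row lies on chromosome 7 (31418634 to 31421166); this and the other row positions stand as the authors' table gives them, in mm9, which the submitters' processing notes name.

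Kdr, the Vegf receptor that marks the mesoderm in which Etv2 acts, was at a low level. The authors gave it 0.0992 FPKM in minus_Dox and 0.0751 FPKM in plus_Dox, the lowest levels among the tested members. Its log2 fold was -0.40 (SE 0.41, q = 0.67 in the authors' deposited table), and -0.39 after trend removal. The 95% interval ran from 0.432-fold to 1.33-fold, so a fall by a factor of 2 lay within its error. The row lies on chromosome 5 (76328851 to 76374483). In bulk samples fewer cells with Kdr and less Kdr RNA per cell cannot be told apart, which holds for every gene described here.

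Tal1, the basic helix-loop-helix factor without which no blood forms, had the largest difference among the tested members. The authors' values were 0.438 FPKM without and 0.291 FPKM with Dox. That is 0.666-fold, with a 95% interval of 0.420 to 1.06 (log2 fold -0.59 with SE 0.34 and, per the authors' deposited table, q = 0.30). The value was further from 0 after the median shift (-0.79, q = 0.14) and after trend removal (-0.80, q = 0.34), and it did not pass in either. A change of 1.91-fold would have passed at this SE. Its row covers chromosome 4 from 114729030 to 114744360, a span of 15.3 kb that equals the RefSeq gene's length.

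Lmo2, the LIM-domain adaptor that bridges Tal1 and the GATA factors, was second in level but could hardly be tested. The authors' values were 1.64 FPKM in minus_Dox and 2.01 FPKM in plus_Dox (log2 fold 0.30, q = 1.00 in the authors' deposited table). The implied SE was 2.13, larger than that of 92.5% of tested rows, so the 95% interval ran from 0.0679-fold to 22.2-fold. At that SE only a 57.5-fold change would have passed. The row spans 105 kb of chromosome 2 (103798142 to 103903397), 4.39 times the length of the RefSeq gene, so it can take in other transcripts. No other member had a row of 2 or more times its gene's length. After trend removal the log2 fold of Lmo2 was -0.18.

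The GATA factors bind the DNA motif after which they are named, Gata1 in red cells and platelet precursors and Gata2 in progenitors. Gata1 had 1.32 FPKM in minus_Dox and 1.41 FPKM in plus_Dox (log2 fold 0.09 with SE 0.28 and, per the authors' deposited table, q = 0.95). Its 95% interval, 0.729-fold to 1.56-fold, was the narrowest among the members, and a change of 1.70-fold would have passed. Gata2 had 0.189 and 0.192 FPKM (log2 fold 0.02 with SE 0.43 and, per the authors' deposited table, q = 1.00), with an interval of 0.569-fold to 1.82-fold. Both folds were below the 0.20 of the bulk of genes and turned negative after the median shift (-0.11 and -0.18) and after trend removal (-0.40 and -0.41), without passing. Gata1 lies on the X chromosome (7536385 to 7555197) and Gata2 on chromosome 6 (88143884 to 88157024).

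Runx1, the factor of the endothelial-to-blood transition, had the highest log2 fold among the tested members. The authors gave 0.510 FPKM in minus_Dox and 0.699 FPKM in plus_Dox. The fold was 1.37 with an interval of 0.762 to 2.47 (log2 fold 0.46 with SE 0.43 and, per the authors' deposited table, q = 0.62). Its transcript is long (5861 nt) and low in GC (46.4%), so its value after trend removal was larger, 0.58, yet did not pass (q = 0.94). Runx1 and Pecam1 were the 2 members with a fold above 0 in the authors' table, after the median shift and after trend removal alike. The row covers chromosome 16 from 92601711 to 92826311.

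The endothelial junction genes and Fli1 were low. Pecam1, which pluripotent stem cells also carry, had 0.552 FPKM in minus_Dox and 0.677 FPKM in plus_Dox (log2 fold 0.29 with SE 0.34 and, per the authors' deposited table, q = 0.72), and 0.13 after trend removal. Its row on chromosome 11 (106515530 to 106611942) is 1.58 times the length of the RefSeq gene. Cdh5, on chromosome 8 (106625524 to 106668402), had 0.0511 and 0.0516 FPKM. Fli1, the ETS factor of haemangioblasts, on chromosome 9 (32229792 to 32348974), had 0.0394 and 0.0169 FPKM. Neither Cdh5 nor Fli1 was tested, so no direction is read from their values. Of all tested rows, 2.58% in minus_Dox and 2.00% in plus_Dox were lower than Cdh5, and 1.85% and 1.03% were lower than Fli1.

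**Figure D2:**
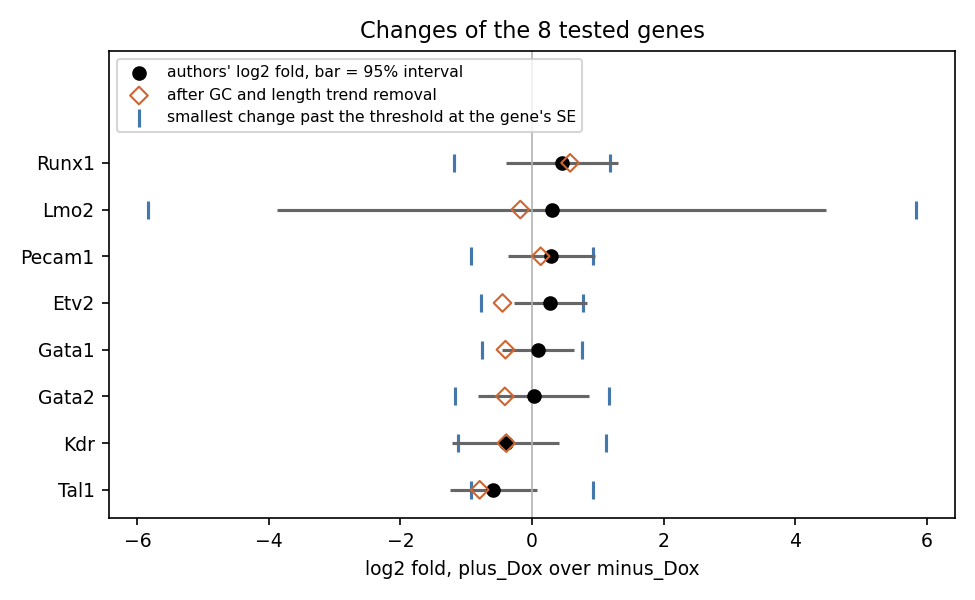
Log2 fold of plus_Dox over minus_Dox for the 8 tested genes (filled points) with the 95% interval implied by the authors' statistic (bars), the value after trend removal (diamonds) and, as blue ticks, the smallest change that would have passed at the gene's own SE. All 8 intervals hold 0, and all points lie between the ticks; the bar of Lmo2 is far wider than the others.

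**Figure D3:**
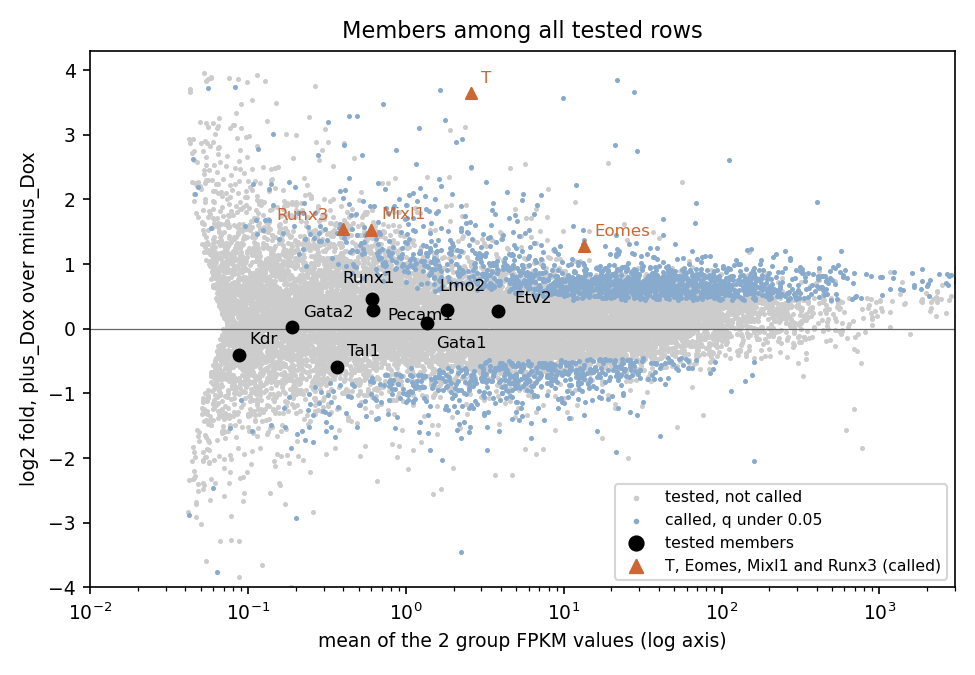
Log2 fold against the mean of the pooled group FPKM values (log axis) for tested rows with a finite fold, with called rows in blue, the 8 tested members in black and 4 called genes of related lists as triangles; 44 rows beyond the plotted range are left out. The members lie in the grey band of uncalled rows. The called genes T, Mixl1 and Runx3 lie within the members' range of mean levels, with Kdr, Gata2 and Tal1 below them and Etv2 above them.

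Some mesoderm genes that precede blood and endothelium rose. Of 12 on a list of such genes, 9 were tested, 3 rose and 0 fell, with a median log2 fold of 0.50. Of all tested rows 12.2% were called (8.98% higher and 3.22% lower), the share to set beside the counts of this and the other lists. T (Brachyury, the streak and mesoderm factor) had 0.381 and 4.76 FPKM, Eomes, a T-box factor of the streak, 7.83 and 18.9 FPKM, and Mixl1, a homeobox factor of mesendoderm, 0.307 and 0.886 FPKM. Their log2 folds in the authors' deposited table were 3.64 (SE 0.42), 1.28 (SE 0.18) and 1.53 (SE 0.30), and all 3 were also called after trend removal (3.29, 0.97 and 1.35). The fold of T exceeded those of 7 of the 8 tested members by more than the 95% interval of the difference. The same held for Mixl1 against 7 and for Eomes against 6 of the 8, with Lmo2 the member left over in each case and Runx1 also for Eomes. T, Eomes and Mixl1 were taken for this with their calls known, so these differences are a description and not a test. The 6 uncalled tested genes of the list, with log2 folds from -0.51 to 0.83, were not compared in this way. Bmp4, the ligand that induces ventral mesoderm, had 1.55 and 2.08 FPKM without a call. Pdgfra, the receptor of paraxial and cardiac mesoderm, had 1.41 and 0.988 FPKM and no call in the authors' deposited table (q = 0.11); it was called lower after the median shift (log2 fold -0.71, q = 0.015) but not after trend removal (-0.43, q = 0.53). Mesp1, the factor of the earliest cardiovascular mesoderm, chosen after its value was seen, had no test, at 0.0181 and 0.0428 FPKM.

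A further list held partners of Tal1, Lmo2, Gata1 and Runx1, not all of them direct binders. Of its 9 tested genes 3 were called, 2 higher and 1 lower, where 12.2% of all tested rows were called. Of the 9, 8 reached 1 FPKM in at least 1 group. The one below it, Runx1t1, named after its value was seen, had 0.368 and 0.580 FPKM. Cbfb, the DNA-binding partner of Runx1, fell from 28.5 to 17.2 FPKM (log2 fold -0.73 with SE 0.18 and, per the authors' deposited table, q = 0.0012); it stood at -0.57 after trend removal (q = 0.057). The log2 folds of Runx1 and Cbfb differed by 1.19 (95% interval 0.27 to 2.10, a pair chosen after the values were seen). Tcf3, which encodes the E-protein partners of Tal1, rose from 59.4 to 88.2 FPKM (log2 fold 0.57 with SE 0.19 and, per the authors' deposited table, q = 0.032). Ssbp4, whose protein binds the Lmo2-bridging factor Ldb1, rose from 8.77 to 17.7 FPKM (log2 fold 1.01 with SE 0.18 and, per the authors' deposited table, q = 4.4e-06). After trend removal Tcf3 stood at 0.06 and Ssbp4 at 0.36, and neither passed. After the median shift Tcf3 was not called (q = 0.27), whereas Tcf12, another E-protein gene, with 16.3 and 11.5 FPKM, was called lower (log2 fold -0.70, q = 0.047); Tcf12 was not called after trend removal. Ldb1 itself had 57.6 and 79.7 FPKM and Ssbp3 66.8 and 65.0 FPKM, without a call. Beside these, Tal1 had 0.438 and 0.291 FPKM.

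Among 24 structural relatives of the members, 20 were tested, 2 rose and 0 fell (10% called, near the 12.2% of all tested rows). Runx3, a paralogue of Runx1, rose from 0.202 to 0.591 FPKM (log2 fold 1.55 with SE 0.40 and, per the authors' deposited table, q = 0.0024). It was not called after trend removal (1.19, q = 0.095). The difference between Runx3 and Runx1, 1.09, had a 95% interval of -0.06 to 2.25, so the paralogues were not shown to differ. Etv4, an ETS gene that responds to Fgf signalling, rose from 13.3 to 24.9 FPKM (log2 fold 0.91 with SE 0.25 and, per the authors' deposited table, q = 0.0058) and stood at 0.38 after trend removal. Its fold differed from that of Etv2 by 0.63 (interval -0.11 to 1.38). Cdh1, the epithelial cadherin of epiblast cells, had 131.1 FPKM in both groups, where Cdh5 had 0.0511 and 0.0516 FPKM.

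Further haematopoietic transcription factors and surface proteins gave no call by the authors' test. Of 11 further haematopoietic transcription factors 10 were tested and 0 passed, with a median log2 fold of 0.14. At an unadjusted p under 0.05 in the authors' deposited table there was 1 of 10, against 23.3% of all tested rows. That gene was Myb, a progenitor factor, with 12.2 and 8.91 FPKM (q = 0.088 in the authors' deposited table). Myb was called lower after the median shift (log2 fold -0.65, q = 0.0072) but not after trend removal (-0.47, q = 0.23). Hhex, a homeobox factor of blood and endoderm, had 4.34 and 5.25 FPKM. Of 8 haematopoietic surface proteins 3 were tested and 0 passed (1 at an unadjusted p under 0.05, Epor). Epor, the erythropoietin receptor, had 2.84 and 3.91 FPKM. Cd34 had 2.13 and 1.63 FPKM, and Kit, the stem cell factor receptor, had 2.93 and 2.49 FPKM in a row that the authors' test marked as failed. Ptprc (CD45), the pan-leukocyte marker, was not tested at 0.0268 and 0.0188 FPKM.

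Genes of primitive (embryonic) and definitive red cells were at the edge of detection. Of 12, 11 were in the table, 10 of these were below 0.1 FPKM in both groups, 3 (Hba-x, Hbb-b1 and Hbb-b2) were listed at 0 in both, and the list summed to 0.393 FPKM in minus_Dox and 0.503 FPKM in plus_Dox. The 4 that were tested gave 0 calls and 0 at an unadjusted p under 0.05. They could hardly be tested: at their SEs only changes from 6.08-fold (Hba-a1) to 51536-fold (Alas2, in a row of 124 kb) would have passed. Alas2, the haem synthesis enzyme of red cells, had 0.193 and 0.215 FPKM, and Hba-a1, an adult alpha globin, 0.0853 and 0.0940 FPKM. Hbb-bh1, an embryonic globin named after its value was seen, was listed at 0.00626 and 0.0795 FPKM (q = 0.67 in the authors' deposited table).

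Of 20 further endothelial genes 16 were tested, 1 rose and 0 fell, with a median log2 fold of 0.17. That is 6.25% called, below the 12.2% of all tested rows. The rise was Sox17, a factor of arterial endothelium and of endoderm, from 2.45 to 3.91 FPKM (log2 fold 0.67 with SE 0.24 and, per the authors' deposited table, q = 0.044; 0.40 after trend removal, not called). Genes of extraembryonic endoderm, a list that also holds Sox17, gave 3 rises in 9 tested genes and summed to 768 and 1248 FPKM, mostly Apoe (590.0 and 1057 FPKM), and Amn rose from 27.2 to 43.8 FPKM. After trend removal none of these 3 rises was called (Apoe 0.17, Amn 0.03), and Gata6, an endoderm factor with 3.95 and 3.17 FPKM and no call in the authors' deposited table, was called lower (log2 fold -0.74, q = 0.019). The part of such cells in the Sox17 value was not tested. Emcn, a marker of endothelium, was listed at 0 in both groups, and Tie1 was not tested at 0.0262 and 0.0244 FPKM. The rows with the highest levels on the list, Egfl7 (40.8 and 65.5 FPKM) and Eng (14.2 and 18.1 FPKM), each join several genes, so these values are not those of Egfl7 or Eng alone.

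The Vegf ligand genes Vegfa, Vegfb, Vegfc, Figf and Pgf were each at a higher level than Kdr in both groups. Vegfb, a ligand of Flt1, rose from 34.8 to 52.5 FPKM (log2 fold 0.59 with SE 0.18 and, per the authors' deposited table, q = 0.015), the 1 call among 7 tested ligand and neuropilin genes, and stood at -0.13 after trend removal. The 1 call of 7 is 14.3%, near the 12.2% of all tested rows. Vegfa, the main ligand of Kdr, had 10.2 and 11.3 FPKM in a row marked as failed. Vegfc, which binds Flt4 and Kdr, had 0.634 and 0.867 FPKM, and Figf, a ligand of Flt4, 0.479 and 0.581 FPKM, both without a call and named after their values were seen. Pgf, another ligand of Flt1, had 1.14 and 1.43 FPKM and the co-receptor Nrp2 had 1.04 and 0.999 FPKM, without a call. The decoy receptor Flt1, named after its value was seen, had 0.815 and 1.13 FPKM, above the 0.0992 and 0.0751 FPKM of Kdr in both groups.

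**Figure D4:**
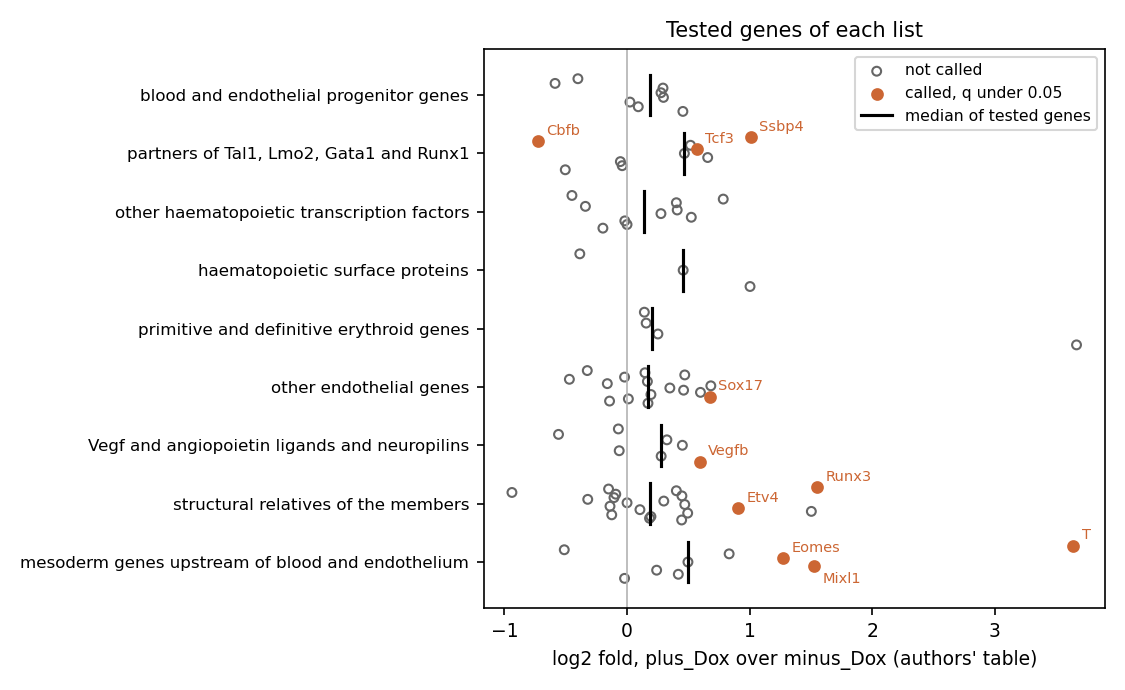
Log2 fold of plus_Dox over minus_Dox for the tested genes of each list (open circles not called, filled and named circles called at a q-value under 0.05, black bars the median), with points spread vertically for legibility. The blood and endothelial progenitor genes hold 0 called genes and lie between -0.59 and 0.46, whereas T, Mixl1 and Eomes of the mesoderm list lie above 1.

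Markers of other cells that the cultures could hold were measured beside these genes. By the authors' test 12.2% of all tested rows were called, and 23.3% had an unadjusted p under 0.05. Of 9 fibroblast markers, which feeder cells would carry, 7 were tested and 0 passed (3 at an unadjusted p under 0.05), with sums of 17.8 and 22.9 FPKM, most of it Thy1 (11.9 and 16.6 FPKM). Of 7 myeloid and platelet markers 4 were tested, all 4 with folds above 0 (median log2 fold 0.82), and 2 had an unadjusted p under 0.05. Lyz2 rose from 0.498 to 0.973 FPKM (q = 0.034 in the authors' deposited table) and was not called after trend removal. Cd68, the highest of the list, had 3.73 and 5.96 FPKM without a call (q = 0.12 in the authors' deposited table). The platelet gene Pf4 was not tested at 0.00978 FPKM in minus_Dox and listed at 0 in plus_Dox. Of 8 pluripotency and epiblast genes 7 were tested, 2 rose and 1 fell. Nanog, a core factor of pluripotent cells, rose from 28.6 to 109.7 FPKM (log2 fold 1.94 with SE 0.19 in the authors' deposited table), and its 1.86 with the trend removed was also called. Utf1, a chromatin factor of stem cells, rose from 260.0 to 362.2 FPKM (q = 0.030 in the authors' deposited table), and its -0.26 with the trend removed was not called. Sox2, which acts with Pou5f1 in stem cells and later in neural cells, fell from 56.2 to 30.9 FPKM (log2 fold -0.86 with SE 0.17 and, per the authors' deposited table, q = 2.66e-05; -1.14 after trend removal, called). The row of Sox2 spans 578 kb, so it can take in other transcripts. Pou5f1 had 820.2 and 1510.2 FPKM without a call (q = 0.055 in the authors' deposited table), and Fgf5, a gene of the epiblast, had 54.1 and 43.8 FPKM. At the low end Esrrb, named after its value was seen, had 0.843 and 1.02 FPKM, below Etv2 and Lmo2. The part of these cells in the members' values was not tested.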

How the data were processed

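RNA was measured by sequencing of oligo-dT captured, fragmented and randomly primed RNA, per the labels' protocols, in 3 minus_Dox and 3 plus_Dox libraries grouped by their titles. Cuffdiff, Cufflinks 2.0.2, TopHat2 2.0.8, Bowtie and Picard, with build mm9, are the tools in the submitters' processing notes. Which annotation was counted is not stated in these sources. The deposited table has Cuffdiff's layout: per the file headers it holds 1 FPKM value per gene and group, a log2 fold, a test score, and the authors' p-value and q-value. Depth is unknown, since pooled FPKM values do not hold reads, so counting intervals could not be given.

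The 10 genes and all lists were chosen with earlier results of these data known. Calls are q-values under 0.05 in the deposited table. Folds were also recomputed after subtraction of the median of tested rows with at least 1 FPKM. They were recomputed as well after least-squares removal of natural cubic splines (6 knots each). The splines were of GC content and log2 length of the longest basic GENCODE vM21 transcript. They were fitted on the 11596 tested rows with both properties and at least 1 FPKM, and applied to 16658 tested rows (92.0%). Tal1, Gata2, Runx1, Kdr and Pecam1, below 1 FPKM in both groups, thus took no part in the fit. Both recomputations kept the SE, with Benjamini-Hochberg adjustment over all rows with a value. The trend removal was tested on simulated data. Of 142 genes on the lists, 137 were found, older symbols included. Genes named were the 10, Lef1, every called gene of a list and the 2 uncalled genes of highest mean FPKM. Not every gene that this rule selects is printed. Names outside it were chosen after their values were seen or stand for a cell type's defining marker. Not each of these is marked so where it is named, Tcf12 and Gata6 among them. RefSeq lengths and promoters are of GRCm38.p6, and no coordinates were converted. Python 3.11.15, numpy 2.4.6, pandas 2.3.3, scipy 1.17.1 and matplotlib 3.10.9 were used.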

Additional observations from a re-analysis of the deposited data

How the results depend on the processing

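The count of called blood and endothelial progenitor genes was 0 at a q-value under 0.01 or 0.1, with at least 1 FPKM or 2-fold, the median shift and trend removal. No paired analysis was possible because the table holds no values of single libraries, and for that reason leaving out each library was not run. The sign turned for 4 members, none called: after the median shift Gata1 stood at -0.11 and Gata2 at -0.18, and after trend removal Lmo2 at -0.18, Gata1 at -0.40, Gata2 at -0.41 and Etv2 at -0.45. Adding 1 or 0.1 FPKM before taking logs turned no sign. Counts of calls in other lists that moved by more than 1.5 times were these. At a threshold of 0.01, endothelial, Vegf and myeloid genes had 0; at 0.1, further haematopoietic factors and fibroblast markers had 1 each. With at least 1 FPKM, structural relatives had 1 and myeloid markers 0. With at least 2-fold, partners, relatives and pluripotency markers had 1 each, and endothelial, Vegf, endoderm and myeloid genes 0. After the median shift, haematopoietic factors (a fall of Myb) and relatives had 1, and endothelial, Vegf and myeloid genes 0. After trend removal, partners, endothelial, Vegf and myeloid genes had 0, and relatives and endoderm markers 1, the fall of Gata6. Smaller moves from 3 calls were to 2 at a threshold of 0.01 (partners, endoderm, pluripotency), to 4 at 0.1 (pluripotency), to 2 with at least 1 FPKM (mesoderm), to 2 (endoderm) and 4 (mesoderm, with a fall of Pdgfra) after the median shift, and to 2 after trend removal (pluripotency). After the shift partners still had 3, but 1 higher and 2 lower, with Tcf12 in place of Tcf3, and pluripotency genes had 1 higher and 2 lower. Fewer genes pass by construction at the stricter settings; for the shift and the trend the cause was not tested. The TCF/LEF letters were in 0 member windows also with CTTTGAT alone. Over all rows, the split of calls was 1626 higher and 584 lower, 618 and 1087 after the median shift, and 207 and 160 after trend removal. The low levels limit what could be seen: among tested members the smallest change that would have passed ranged from 1.70-fold for Gata1 to 57.5-fold for Lmo2.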
